A study of Mus musculus with 4 samples.

Results

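The genes described here were 57 mouse genes of synaptic adhesion, glutamate receptors, synaptic scaffolds and other neuronal genes, most of them very long, named by symbol from a fixed list. They were 57 of 21900 protein-coding genes in the annotation, and the peaks of 5-hydroxymethylcytosine (5hmC) counted for each were those to which the authors had given its symbol. The series profiled 5hmC in ATDC5, a mouse chondrogenic cell line, by chemical capture of 5hmC-bearing genomic DNA and sequencing. The chondrocyte stage had 2 libraries, 1 from day 19 and 1 from day 20 of culture with insulin, transferrin and selenite, and the chondroprogenitor stage had 2 libraries from day 0, before these were added. All cells grew in the same basal medium with serum and ascorbic acid, and all came from 1 cell line. Each stage was deposited as 1 list of merged libraries, 56695 usable peaks at day 20 and 1050 at day 0, with positions and no value per peak, so no spread between replicates could be measured, no difference between stages was tested, and read depth is unknown. The labels and headers used here leave unsaid whether the day 19 library is part of the day 20 list. In merged bulk DNA, a larger share of cells with 5hmC at a site and more 5hmC per cell cannot be told apart.

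5hmC is made from 5-methylcytosine by the TET enzymes and is known to lie over the bodies of active genes, with the brain among the tissues richest in it. Many genes of this list build and organise synapses. Receptor phosphatases, neurexins, neuroligins, contactins, IgLON proteins and cadherins join cell to cell. Scaffold proteins such as those of the Magi and Dlg families anchor receptors under the membrane, and glutamate receptors carry the signal. Several are also used outside the nervous system, as scaffolds of epithelial junctions or as growth factor receptors. Their length matters for any count of peaks, since a longer gene offers more places for one. The annotated length ranged from 64.1 kb in Ptprs to 2271 kb in Ptprd, with a median of 1023 kb, and 45 of the 57 spanned 500 kb or more, a length reached by 1.04% of all protein-coding genes.

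At the chondrocyte stage, peaks were sparse in most of the list and dense in a few genes. At least 1 day 20 peak was assigned to 23 of the 57 genes (40.4%, Wilson 95% interval 28.6 to 53.3%), and the same held for 43.8% of all protein-coding genes, whose median length was only 17.2 kb. The 23 genes shared 160 peaks, of which Magi1 alone held 33 and the 4 richest genes, Magi1, Magi2, Dlg2 and Dscam, held 76 (47.5%). A count of 10 or more, reached by these 4 members, was found in 3.04% of all protein-coding genes. At day 0, 3 of the 57 genes had a peak, Magi2, Grm8 and Cdh13 with 1 each (5.26%, 1.81 to 14.4%), beside 1.81% of all protein-coding genes and 8.37% of those of 500 kb and over. Intervals cover counting error only.

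**Figure D1:**
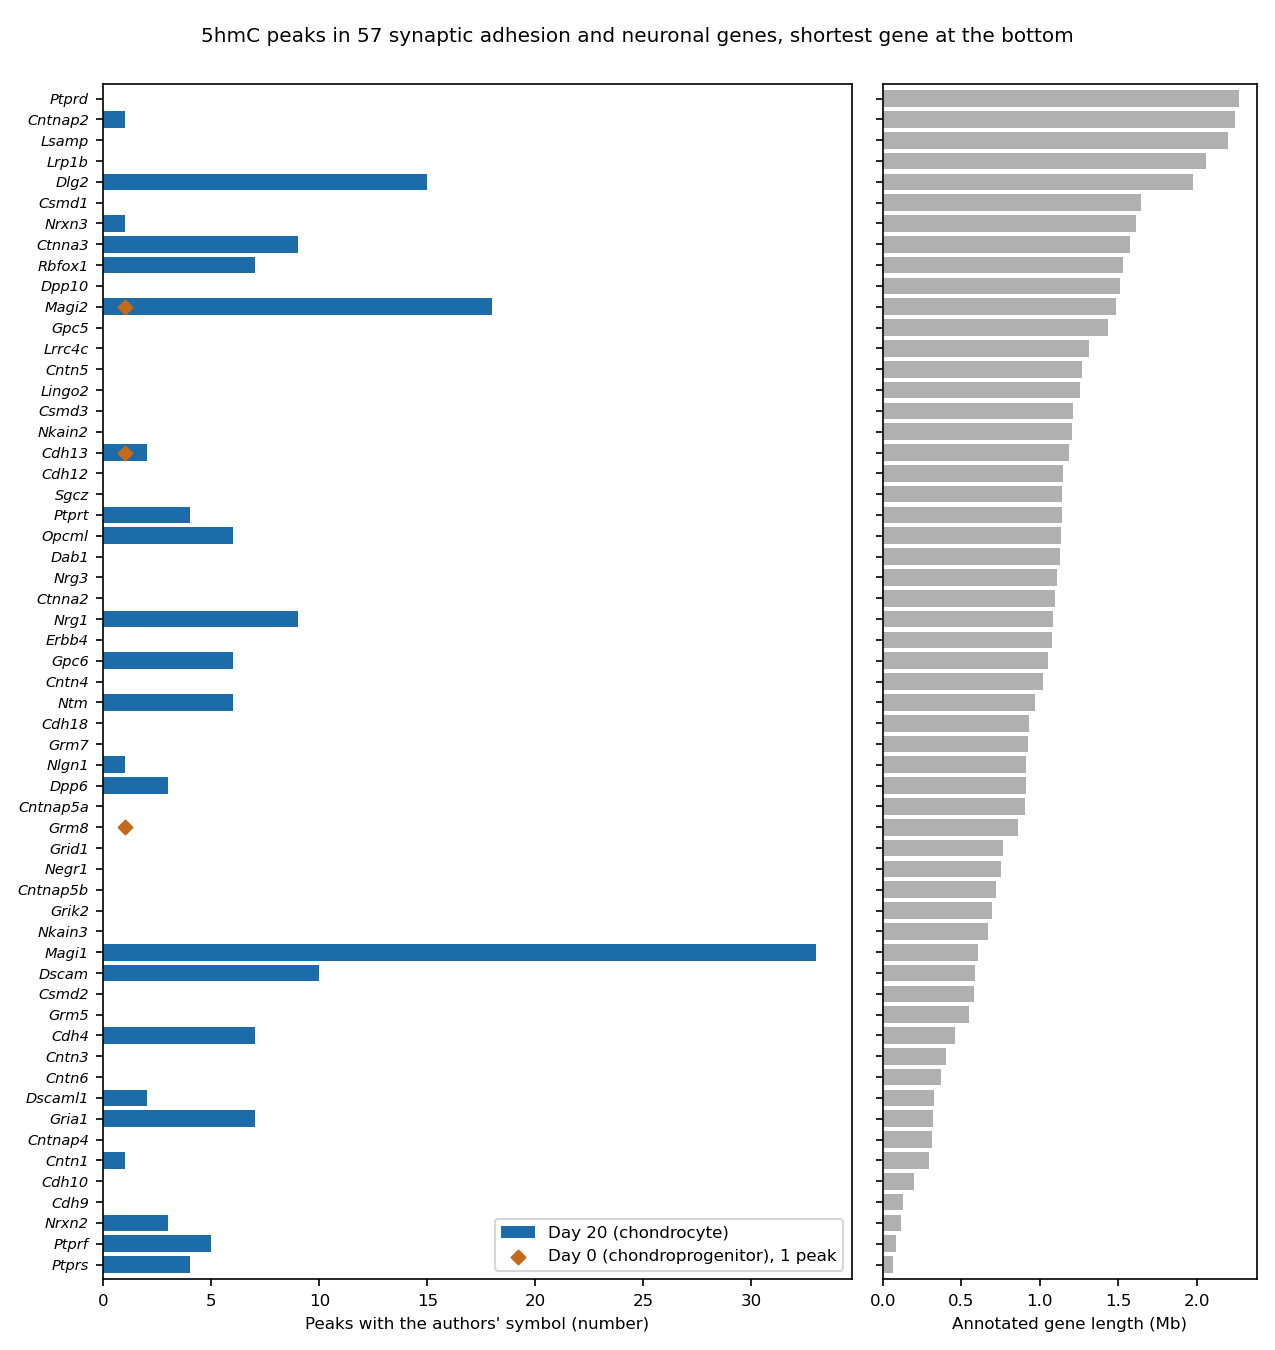
Number of 5hmC peaks that carry the symbol of each of the 57 genes (left, bars for day 20, diamonds for day 0) beside the annotated gene length in Mb (right), with the longest gene at the top. The bars show 33 peaks for Magi1, 18 for Magi2, 15 for Dlg2 and 10 for Dscam, and no bar for 34 genes, among them Ptprd, the longest.

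No peak in either list carried the symbol of 33 genes (57.9%), a share close to the 56.0% of all protein-coding genes. They comprised Ptprd, Lrp1b, Csmd1, Csmd2, Csmd3, Dpp10, Grid1, Gpc5, Lrrc4c, Cntn3, Cntn4, Cntn5, Cntn6, Lingo2, Nkain2, Nkain3, Cdh9, Cdh10, Cdh12, Cdh18, Sgcz, Cntnap4, Cntnap5a, Cntnap5b, Lsamp, Negr1, Ctnna2, Grm5, Grm7, Grik2, Dab1, Erbb4 and Nrg3. The metabotropic glutamate receptor gene Grm8 had its 1 peak at day 0 and none at day 20. By position, without regard to the symbol, 25 of the 57 genes held a day 20 peak in the gene body (40.5% of all protein-coding genes did), 5 held a day 0 peak (1.76% of all genes and 10.6% of those of 500 kb and over), and 30 (52.6%) had no peak of either stage, as did 59.2% of all protein-coding genes. The exceptions among the 33 were Csmd2 and Lsamp, each with 2 unassigned day 20 peaks inside, and Nkain3 with 1 unassigned day 0 peak.

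Sequence at annotated starts is shown for genes at both extremes, the junction scaffold genes Magi1 and Magi2, which held the most peaks, and the alpha-catenin genes Ctnna3 and Ctnna2, which link cadherins to actin and of which the first held 9 day 20 peaks and the second none. Each line gives the 250 bases before and 50 bases after an annotated start from RefSeq (GRCm38.p6), 5′ to 3′ on the strand of the gene, with each CpG, the usual site of 5-methylcytosine and 5hmC, in capitals.
Magi1, inner start, chr6:93912914-93913213, minus strand: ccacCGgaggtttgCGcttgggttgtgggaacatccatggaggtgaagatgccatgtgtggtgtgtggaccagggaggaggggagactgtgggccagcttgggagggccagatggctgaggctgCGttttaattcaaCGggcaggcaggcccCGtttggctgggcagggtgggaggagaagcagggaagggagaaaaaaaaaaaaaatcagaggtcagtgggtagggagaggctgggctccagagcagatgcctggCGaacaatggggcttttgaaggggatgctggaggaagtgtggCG
Magi1, second start, chr6:93913641-93913940, minus strand: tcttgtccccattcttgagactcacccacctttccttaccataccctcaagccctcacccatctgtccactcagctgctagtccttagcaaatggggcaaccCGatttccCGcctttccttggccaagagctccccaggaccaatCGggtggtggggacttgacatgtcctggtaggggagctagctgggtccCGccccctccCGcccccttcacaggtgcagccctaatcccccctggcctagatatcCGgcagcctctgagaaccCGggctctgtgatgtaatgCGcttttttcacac
Magi2, chr5:19226796-19227095, plus strand: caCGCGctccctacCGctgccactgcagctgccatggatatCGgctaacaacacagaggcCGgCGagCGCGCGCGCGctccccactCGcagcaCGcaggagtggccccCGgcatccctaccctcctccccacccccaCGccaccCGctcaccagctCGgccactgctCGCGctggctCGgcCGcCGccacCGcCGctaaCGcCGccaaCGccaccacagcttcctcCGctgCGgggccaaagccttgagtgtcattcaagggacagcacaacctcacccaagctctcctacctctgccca
Ctnna3, chr10:63429848-63430147, plus strand: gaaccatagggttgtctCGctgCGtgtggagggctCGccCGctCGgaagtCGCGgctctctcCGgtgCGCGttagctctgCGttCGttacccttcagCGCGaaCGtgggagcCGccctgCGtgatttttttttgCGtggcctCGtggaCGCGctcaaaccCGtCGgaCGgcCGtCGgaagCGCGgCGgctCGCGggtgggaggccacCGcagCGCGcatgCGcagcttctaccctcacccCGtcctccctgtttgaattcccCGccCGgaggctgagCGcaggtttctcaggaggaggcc
Ctnna2, chr6:77979618-77979917, minus strand: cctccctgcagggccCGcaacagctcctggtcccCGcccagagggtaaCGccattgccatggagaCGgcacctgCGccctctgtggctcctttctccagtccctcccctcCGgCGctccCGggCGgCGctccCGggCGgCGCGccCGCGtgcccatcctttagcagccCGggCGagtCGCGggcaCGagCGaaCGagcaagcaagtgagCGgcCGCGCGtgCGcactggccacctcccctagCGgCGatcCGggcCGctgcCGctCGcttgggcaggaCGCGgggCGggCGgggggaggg

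The inner Magi1 start was the only one of 64 annotated starts, from the 39 genes matched in the promoter table, that lay inside a day 20 peak. That peak (chr6:93912648-93913488) covered all 300 bases of the window, which held 7 CpGs. The second Magi1 start lay 0.202 kb from the same peak and had 8 CpGs. Both Magi1 starts are internal, since the annotated gene (chr6:93675453-94283929, minus strand) begins at its higher coordinate. The promoter table had no entry at that 5′ end. The 2 Magi1 starts were also the only ones within 1 kb of a day 20 peak (3.12%), beside 12.1% of 21263 starts of all protein-coding genes. The Ctnna3 window had 39 CpGs and its start lay 1.79 kb from the nearest day 20 peak. For Ctnna2 the window had 38 CpGs, and the nearest day 20 peak was 3681 kb away. In Magi2 the window had 29 CpGs and the nearest peak stood 238 kb downstream. Other annotated starts of the same genes differed, with 4 CpGs at a further Magi2 start and 7 and 2 at further Ctnna3 starts. The window held a median of 7 CpGs (range 1 to 46) over 33 starts of 16 genes with a day 20 peak. It was 12 (range 0 to 46) over 31 starts of 23 genes without one, and 13 over all protein-coding genes. Genes with several starts weigh more in these medians. At least 1 CG was present in 96.9% of the member windows and in 95.4% of all windows of this length.

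Other genes of 500 kb and over more often held peaks. Length was not held equal within this range, since 29 of 45 members and 30 of 182 others reached 1000 kb. Among genes of 500 kb and over, a day 20 peak was assigned to 16 of 45 members (35.6%, 23.2 to 50.2%) and to 125 of 182 other protein-coding genes (68.7%, 61.6 to 75%), with 62.1% of all 227. By position the members reached 18 of 45 and all genes of this length 66.5%. Counts of 10 or more peaks were found in 4 of 45 members (8.89%) and 71 of 182 others (39.0%), with 33.0% of all 227. On autosomes alone, where every member lies, the other genes reached 123 of 171 (71.9%). Density differed in the same direction, with 2.45 assigned day 20 peaks per Mb of gene in the members of this length and 14.9 per Mb in the others, and the median gene held 0 and 5 peaks. Without Magi1 the members' density was 1.85 per Mb. No gene was left out of the others for this value, and the richest of them, Auts2, held 62 peaks. Of 86 protein-coding genes of 500 kb and over with no assigned day 20 peak, 29 (33.7%) were members, which made up 19.8% of genes of that length. The list was not drawn at random but chosen with earlier results of these data known. Since genes are also not replicates, these shares are descriptions.

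**Figure D2:**
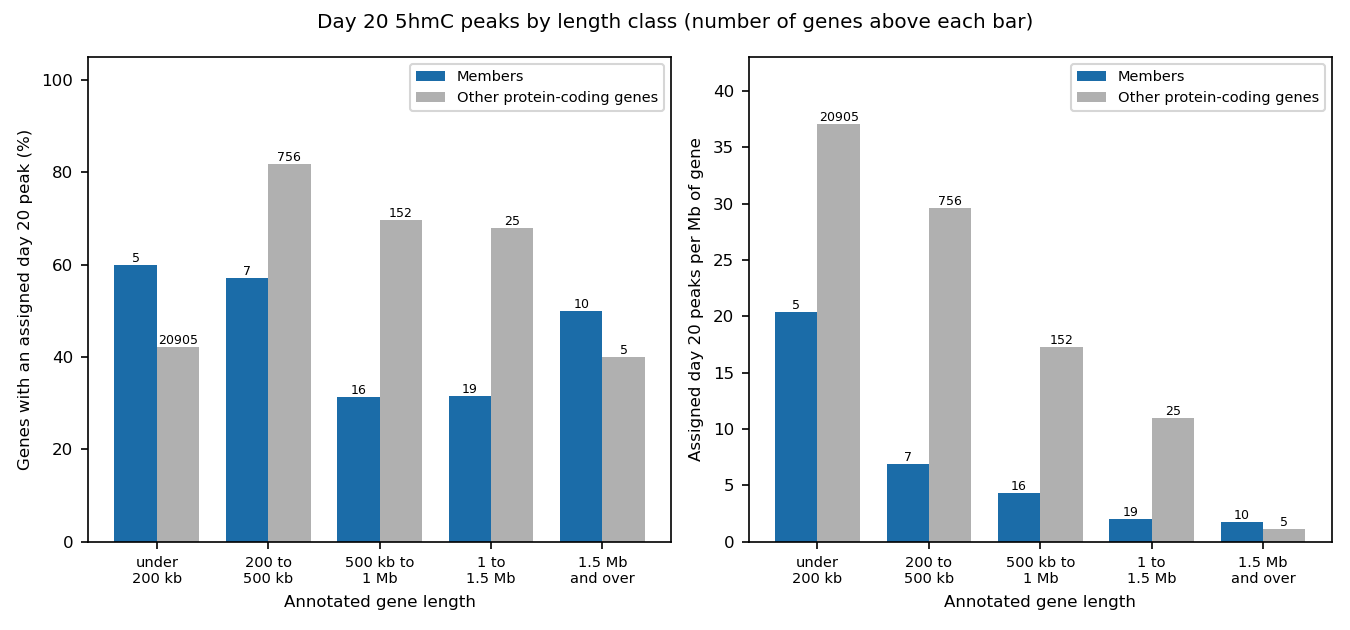
Share of genes with an assigned day 20 peak (left, %) and assigned day 20 peaks per Mb of gene (right) in 5 classes of annotated length, for members and other protein-coding genes, with the number of genes above each bar. From 200 kb to 1.5 Mb the members' bars are the lower ones in both panels, and at 1.5 Mb and over, with 10 members and 5 other genes, they are the higher ones, although by position the share there is 60% in members and 80% in the others.

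The contrast depended on the length class. Between 500 kb and 1 Mb, 5 of 16 members (31.2%) and 106 of 152 other genes (69.7%) had an assigned day 20 peak, at 4.30 and 17.3 peaks per Mb. Between 1 and 1.5 Mb, 6 of 19 members (31.6%) and 17 of 25 others (68.0%) did, at 2.00 and 11.0 per Mb. At 1.5 Mb and over, 5 of 10 members (50%) and 2 of 5 others (40%) did, at 1.77 and 1.10 per Mb, so the longest genes were sparse on both sides. By position the order of the shares in this class was the other way round, with 6 of 10 members (60%) and 4 of 5 others (80%). Between 200 and 500 kb, 4 of 7 members (57.1%) and 619 of 756 others (81.9%) did, at 6.86 and 29.6 per Mb. In the 5 members under 200 kb, 3 had a peak (60%), a higher share than the 42.2% of 20905 other genes of that class. The density there was lower, at 20.4 and 37.1 per Mb. This class does not match length, as its members measured 64.1 to 197 kb and the median protein-coding gene 17.2 kb.

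**Figure D3:**
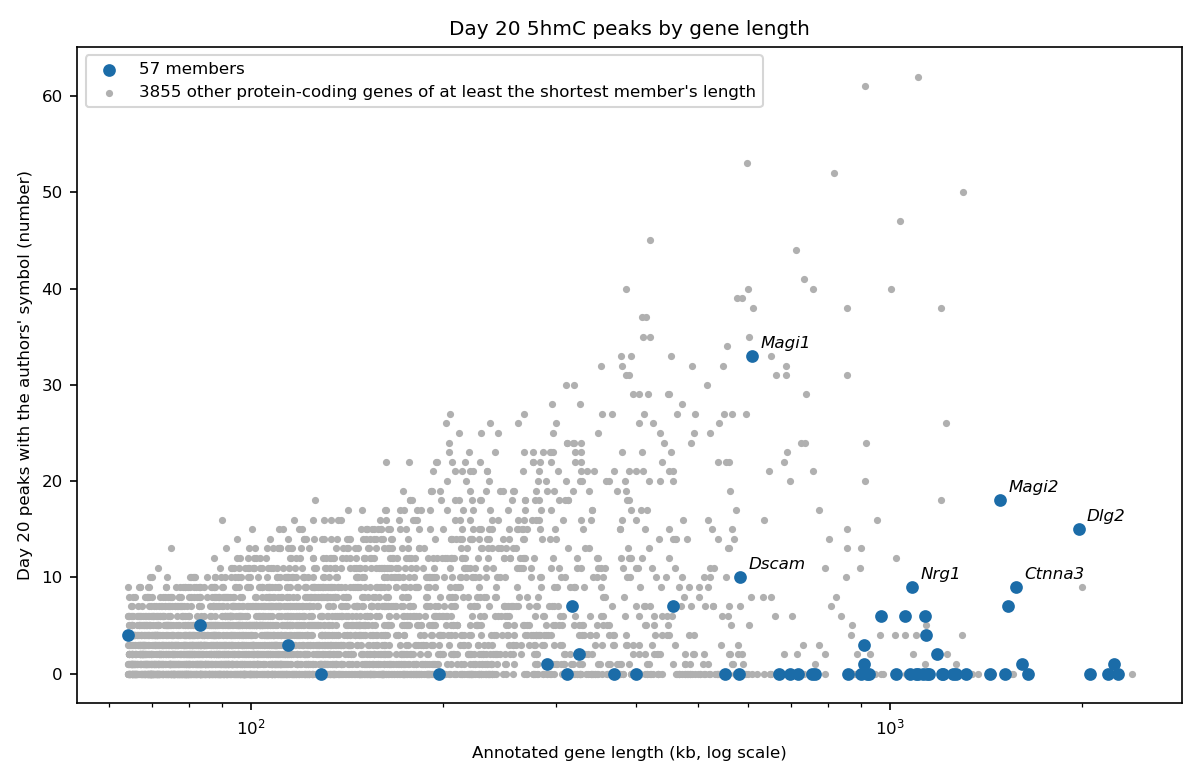
Day 20 peaks that carry a gene's symbol (number, linear axis) against annotated gene length (kb, log axis), for the 57 members and for other protein-coding genes at least as long as the shortest member. Magi1 sits among the other genes of its length at 33 peaks, while 34 members lie at 0.

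Some members of nearly equal length differed widely, while many others were alike in holding no assigned peak. Magi1 (608 kb) held 33 day 20 peaks, while Nkain3 (670 kb), whose product binds a subunit of the sodium pump, held none and Dscam (584 kb), an adhesion gene of neurite self-avoidance, held 10. Magi2 (1485 kb) held 18, and both of its neighbours in length, Dpp10 (1514 kb), a subunit of Kv4 potassium channels, and the glypican gene Gpc5 (1433 kb), held none. Dlg2 (1973 kb), which encodes a scaffold of the postsynaptic density, held 15 and Lrp1b (2058 kb), a giant relative of the LDL receptor, held none. Csmd2 (581 kb), a gene of CUB and sushi domains, was within 0.429% of Dscam in length and was assigned none, against the 10 of Dscam, although 2 unassigned peaks lay inside Csmd2. Over 46 neighbouring pairs in the order of length that differed by under 10%, these were the 6 with the largest differences in assigned peaks. By position the largest differences were those of Nrg1, with 34 peaks, from its length neighbours Erbb4 and Ctnna2, which had none. At the other end, Cntnap2 (2241 kb) and Ptprd (2271 kb) were alike, with 1 peak and none. Many of the 46 pairs, such as Csmd3 and Lingo2 or Cntn6 and Cntn3, had no assigned peak in either gene.

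Receptor phosphatases differed within the family. Ptprs and Ptprf, receptors of the LAR type that organise presynaptic terminals, are the shortest members, at 64.1 and 83.2 kb, and held 4 and 5 day 20 peaks, or 62.4 and 60.1 per Mb. Their paralog Ptprd, at 2271 kb, held none and lay within a stretch of 6.58 Mb without any day 20 peak. The peaks of Ptprf ran from chr4:118218909 to 118270848, and the widest, of 2429 bp (118268420 to 118270848), was the widest of all 160 peaks assigned to members. In Ptprs, 3 of the 4 peaks lay inside the gene and 1 lay beyond its higher-coordinate end, which is the 5′ end; the widest was 2144 bp (chr17:56458880-56461023), and the starts were 1.20 and 1.41 kb from a peak. Ptprt, a homophilic adhesion phosphatase of 1139 kb, held 4 narrow peaks of 324 to 429 bp between chr2:161558718 and 162548764.

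The junction and synapse scaffolds held the largest part of the peaks. Magi1, Magi2 and Dlg2 together carried 66 of the 160 peaks, or 16.2 per Mb of gene. Magi1, a scaffold of cell junctions in many tissues, had 54.2 per Mb and ranked 19 by number among 227 genes of 500 kb and over. Its peaks spanned 98.3% of the gene (chr6:93684413-94282769), with a median spacing of 13.2 kb. With the gene cut into 3 parts of equal length, 18 of the 33 lay in the 5′ part, 7 in the middle part and 8 in the 3′ part. The widest measured 1796 bp (94183018 to 94184813). Magi2, its paralog at synapses and in kidney podocytes, had its 18 peaks at 12.1 per Mb and a median spacing of 51.8 kb (chr5:19465448-20677135), with 2 of them in the 5′ part and 9 in the 3′ part. In Dlg2 the 15 peaks lay between chr7:91432357 and 92424679, all past 48.5% of the annotated gene length from the 5′ end.

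**Figure D4:**
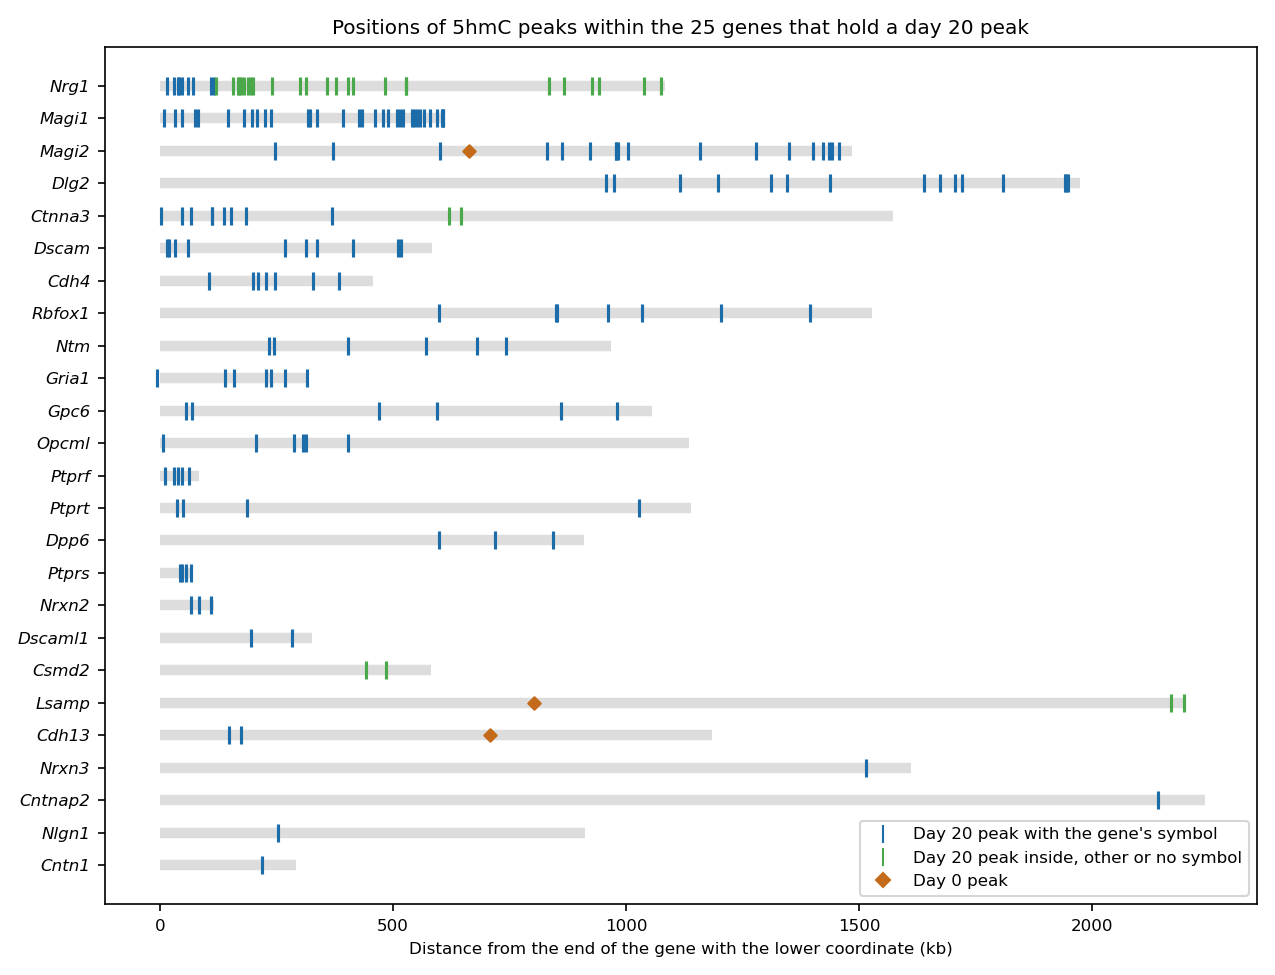
Positions of 5hmC peaks along the 25 genes that hold a day 20 peak by position, as distance in kb from the end with the lower coordinate, with a grey bar for the annotated gene. The plot shows peaks along the whole of Magi1, in the higher-coordinate part of Dlg2, in the lower-coordinate part of Ctnna3, and unassigned peaks along most of Nrg1.

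Among the neuregulins and their receptor, the growth factor gene Nrg1 (1084 kb) was the exception to the symbol counts. The authors assigned 9 day 20 peaks to it, all between chr8:31821078 and 31923894, in the lowest 10.7% of the gene by coordinate. A further 24 unassigned peaks and 1 given to Gm8179 lay inside the annotated gene, from 31927886 to 32883392. By position Nrg1 thus held 34 peaks, 1 more than Magi1, at 31.4 per Mb. Nrg3 (1108 kb) and the neuregulin receptor gene Erbb4 (1077 kb), both close to Nrg1 in length, held none by symbol or by position. Of 5 related genes outside the list, 4 had a day 20 peak, led by Egfr, the receptor for epidermal growth factor, with 11 in 162 kb.

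Cell adhesion families with many long genes were mostly empty. Of 5 contactin genes, which encode adhesion proteins anchored in the membrane by a lipid, Cntn1 had 1 day 20 peak (chr15:92268857-92269334) and Cntn3, Cntn4, Cntn5 and Cntn6 none. Among 4 genes for contactin-associated proteins, Cntnap2 had 1 (chr6:47202019-47202404), at 95.6% of its length, and Cntnap4, Cntnap5a and Cntnap5b none. Of 6 cadherin genes, Cdh4 had 7 peaks in 457 kb (chr2:179547590-179825790) and Cdh13, the gene of a cadherin without a transmembrane domain, had 2 (chr8:118287480-118288129 and chr8:118313432-118313807). The type II cadherin genes Cdh9, Cdh10, Cdh12 and Cdh18 had none. Dscam and Dscaml1 both had peaks, 10 (chr16:96602200-97105415) and 2 (chr9:45622869-45710628).

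IgLON genes split between neighbours and distant members. Opcml and Ntm, which lie 69.3 kb apart on chromosome 9, held 6 day 20 peaks each, while Lsamp and Negr1 were assigned none. In Opcml the peaks lay in the 5′ part, between 0.460 and 35.5% of the gene length (chr9:27795736-28193608), and in Ntm between 23.4 and 75.9% (chr9:29227651-29736340). Gpc5 and Gpc6, which encode cell-surface heparan sulphate proteoglycans and lie 400 kb apart on chromosome 14, differed: Gpc6 held 6 peaks (chr14:116979797-117905880) and Gpc5 none, with no day 20 peak between them. Ctnna3 held 9 peaks in the first 23.4% of its length (chr10:63431891-63798372). A pair of further peaks inside Ctnna3, at 39.4 and 41.1% of its length, carried the symbol of Lrrtm3, a synaptic adhesion gene.

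Neurexins and neuroligins, the paired adhesion proteins of the presynaptic and postsynaptic membrane, had few peaks, although all 3 genes had at least 1. Nrxn2 (114 kb) held 3 (chr19:6484667-6529102), or 26.2 per Mb. Nrxn3 (1612 kb) held 1 (chr12:90236044-90236540) and Nlgn1 (911 kb) held 1 (chr3:25675161-25675487). Among the 6 glutamate receptor genes, the AMPA receptor gene Gria1 held 7 day 20 peaks (chr11:57005294-57327724), 1 of them outside the annotated gene. Grid1, Grm5, Grm7, Grm8 and the kainate receptor gene Grik2 held none. The splicing factor gene Rbfox1 held 7 (chr16:6483946-7280004), all beyond 39.2% of its length, and Dab1, the adaptor of the reelin pathway, none. Dpp6 held 3 (chr5:27414554-27660716). The families of Csmd1, Csmd2, Csmd3 and Lrp1b, of Lrrc4c and Lingo2, of Nkain2 and Nkain3, and the sarcoglycan gene Sgcz had no assigned peak over 11.1 Mb of gene in all.

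Day 0 peaks in the list were few and narrow and lay apart from day 20 peaks. The 3 assigned ones measured 127 bp in Grm8 (chr6:28097728-28097854), 59 bp in Cdh13 (chr8:118847207-118847265) and 51 bp in Magi2 (chr5:19882925-19882975). None overlapped a day 20 peak, and the nearest day 20 peaks were 117 kb away in Grm8, 533 kb in Cdh13 and 62.0 kb in Magi2. Of all 1050 day 0 peaks, 530 (50.5%) likewise overlapped no day 20 peak, so the 3 say nothing particular to these genes. The unassigned day 0 peaks in Nkain3 (chr4:20191818-20191983) and Lsamp (chr16:40785524-40785655) did not overlap one either. Peaks assigned to members at day 20 had a median width of 500 bp (quartiles 403 and 626 bp), against 602 bp (466 and 804 bp) for peaks assigned to other protein-coding genes.

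Peaks were also counted in the surroundings of the genes. Within 500 kb on both sides, members with an assigned day 20 peak had a median of 28 day 20 peaks (range 0 to 44) and members without one had a median of 0 (range 0 to 34), with a median of 29 for all protein-coding genes. No peak at all lay in these flanks for 21 of the 34 members without one and for 1 of the 23 with one, Nrxn3. The same held for 17 of 57 other genes of 500 kb and over without an assigned peak and for 5 of 125 with one. Among all protein-coding genes it held for 1974 of 21900. These counts include peaks assigned to members, such as those of Ntm beside Opcml and of Gpc6 beside Gpc5, and peaks of Ptprs and Gria1 outside their own bodies. Without any peak assigned to a member, an alternative added after seeing the data, the medians were again 28 and 0, and the flanks of 22 of the 34 members without an assigned peak and of 1 of the 23 with one were empty. Other genes of 500 kb and over had a median of 25 with an assigned peak and 4 without. Exceptions were Grid1 with 34 flanking peaks, Csmd2 with 29, Dab1 with 22 and Grm8 with 21, all without an assigned peak. In the opposite direction, Rbfox1 held 7 peaks with only 1 in its flanks.

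**Figure D5:**
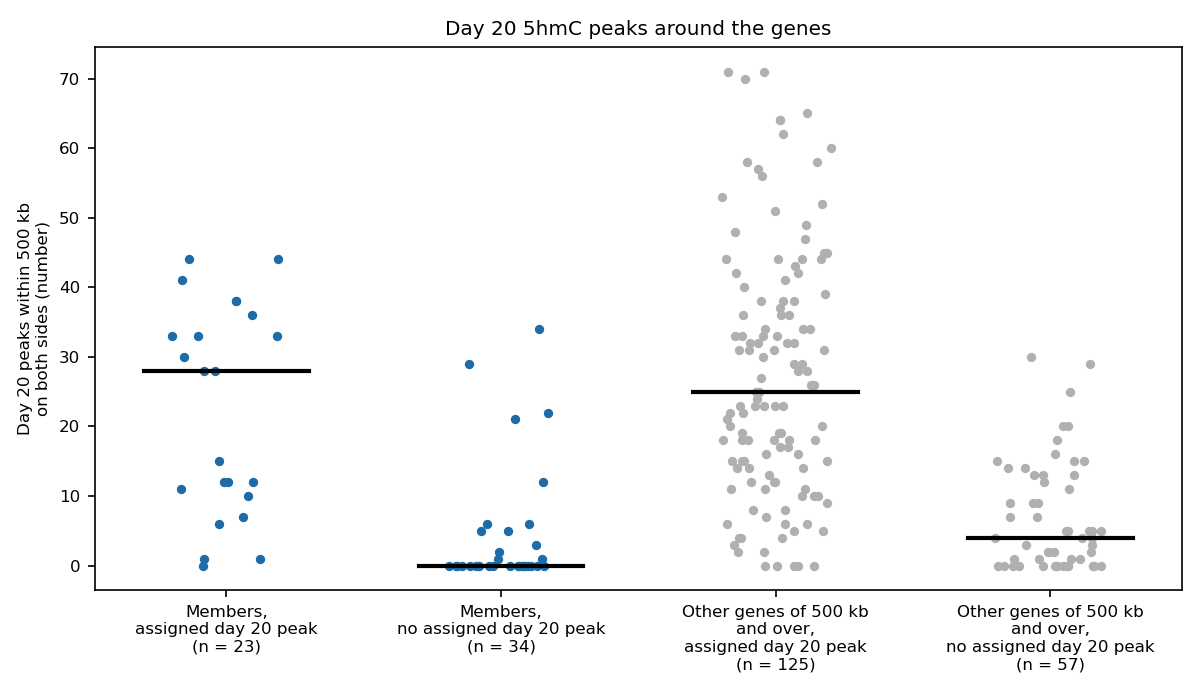
Number of day 20 peaks within 500 kb on both sides of each gene, for members with and without an assigned day 20 peak and for other protein-coding genes of 500 kb and over with and without one; black lines are medians and points are jittered sideways. The medians are 28, 0, 25 and 4.

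All 32 members with no day 20 peak by position lay wholly inside stretches of at least 1 Mb between neighbouring day 20 peaks. For 17 of them, which are 1 Mb or longer, this follows from their length, and the other 15 are shorter than 1 Mb. These stretches ran from 1.59 to 11.2 Mb, with a median of 4.13 Mb, and for 21 of the 32 genes the nearest day 20 peak was more than 500 kb from the gene. There were 277 such autosomal stretches covering 697 Mb, and 28 of them held a whole member. They took in 78.5% of the members' summed length, 32.4% of that of other autosomal protein-coding genes of 500 kb and over and 15.7% of that of all autosomal protein-coding genes. Genes wholly inside were 32 of 57 members (56.1%), 35 of 171 of these other long genes (20.5%) and 12.7% of all autosomal protein-coding genes. Of those 171, 131 held a day 20 peak by position. Most of the rest lay wholly inside too, so this is not particular to the members. Of the 10 longest stretches, 6 touched a member, beside 40 of all 277 (14.4%), and a longer stretch can take in more genes. The second longest, 11.2 Mb on chromosome 14 (105813517 to 116979796), held Gpc5 whole and ended inside Gpc6. A stretch of 10.5 Mb on chromosome 15 (13243910 to 23738313) held the type II cadherin genes Cdh9, Cdh10, Cdh12 and Cdh18, and 1 of 10.8 Mb on chromosome 1 (107593095 to 118418665) held Cntnap5a. Ctnna2 lay in 8.29 Mb on chromosome 6 and Cntnap5b in 7.11 Mb on chromosome 1. Genes in 1 stretch, such as the 4 cadherins, do not count as separate cases, and sequence to which reads cannot be mapped was not excluded.

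Relatives of the members outside the list held more peaks per length than the members and fewer than protein-coding genes at large. Of 68 such genes, 40 (58.8%) had an assigned day 20 peak, at 13.0 per Mb and a median length of 151 kb, the members stood at 2.83 per Mb, and all protein-coding genes outside the list stood at 32.3 per Mb with 43.8% holding a peak. Length was not held equal here, as the median was 1023 kb in members and 17.2 kb in all protein-coding genes. Outside the list, density fell from 37.1 per Mb under 200 kb to 17.3 between 500 kb and 1 Mb and 1.10 at 1.5 Mb and over. The receptor phosphatase genes Ptprm and Ptprg, of 688 and 689 kb, held 32 and 31, and Ptprk held 11 in 523 kb. By number these were all more than any of the 4 phosphatase genes in the list. Per Mb, Ptprm, Ptprg and Ptprk had 46.5, 45 and 21. These densities were below those of the short members Ptprs (62.4) and Ptprf (60.1) and above those of Ptprt (3.51) and Ptprd (0). Rbfox2, the paralog of Rbfox1 that acts in many tissues, held 15 in 229 kb. Among cartilage genes such as Acan, Runx2 and Sox5, 11 of 12 had an assigned day 20 peak, at 32.8 per Mb, and among general neuron markers such as Map2 and Syt1, 7 of 13 had one, at 14.6 per Mb. Over summed length the cartilage density was thus near that of protein-coding genes at large, but the share with a peak was higher, at 91.7% against 43.8%. Most of the 2.32 Mb of cartilage genes lay in Sox5 (954 kb) and Sox6 (570 kb), which had 16.8 and 24.6 peaks per Mb. Peaks of 5hmC do not measure transcription, so these counts do not check the cell type of the cultures.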

How the data were processed

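DNA of ATDC5 cells was enriched for 5hmC with a capture kit, per the labels' protocols. The deposited lists hold peaks of 10-fold enrichment, 1 list for the pooled libraries of each stage, per the file headers; the baseline of the enrichment is not stated there. The submitters' processing notes name FastQC, cutadapt, BWA, MACS 1.4.2 and build GRCm38. Deposited values were peak positions in bp, with the authors' gene symbol and a transcript accession. In the day 20 list 3 entries, none of a member, had an unreadable end and were dropped. Members were found by the authors' symbol, other genes by symbol or, failing that, accession. Gene positions, starts and strand came from RefSeq tables of GRCm38.p6, and exons were not used here. A peak lay in a gene when they shared at least 1 bp. No test between stages and no omission of a replicate was possible. The 57 genes, the lists and the comparisons were chosen with earlier results of these data known.

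Named with values were members without a peak, with 10 or more day 20 peaks or with a day 0 peak, the 6 neighbours in length that differed most, and relatives with 10 or more. Other genes were named to account for all members, after their values were seen. In simulated data the count was right in 500 of 500 genes. Python 3.11.15, numpy 2.4.6, pandas 2.3.3, scipy 1.17.1 and matplotlib 3.10.9 were used.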

Additional observations from a re-analysis of the deposited data

How the results depend on the processing

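The number of members with an assigned day 20 peak (23) and the peaks they held (160) became 25 and 189 by overlap of the gene body, 25 and 193 with 5 kb on both sides, and 23 and 157 with peaks within 1 kb merged. Nrg1 had 34 by position and 9 by symbol. Keeping peaks of at least the median width of their list left 14 members and 47 peaks at day 20 and 0 members at day 0. Median width was 500 bp for member day 20 peaks and 591 bp for the list, and the widest of the 3 member day 0 peaks, 127 bp, was under the day 0 median of 134 bp. Members with a day 0 peak numbered 3 by symbol and 5 by the gene body, with or without 5 kb on both sides. The overlap of member day 0 peaks with day 20 peaks was 0 at 1 bp, at 50% of the shorter peak and within 1 kb, settings at which 49.5, 49.4 and 56.5% of all 1050 day 0 peaks met one. The share of other genes of 500 kb and over with a day 20 peak was 68.7% on all chromosomes and 71.9% on autosomes, an alternative chosen after seeing the data. No paired analysis was possible because each stage was deposited as 1 merged list. Read depth is unknown, so a gene without a peak may hold 5hmC below the authors' threshold.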
